A study of Mus musculus with 8 samples.

Results

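The Dlk1-Dio3 locus of the mouse carries a dense series of miR genes, and its members were found here by name. A murine miR on the array counted as a member when its number was among 51 numbers known from the locus, whatever its letter or arm. This gave 103 of the 1079 murine miRs on the array, counting the 5p and the 3p arm of a precursor separately. The rule uses names only, and it was drawn up with earlier results of these data known.

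The miRs were measured in callus, the repair tissue that forms around a broken bone, of male and female CD-1 mice with an osteotomy of the femur that was held by a pin and a metal clip. In the Union group (4 mice, P17 to P20) the gap was 0.25 mm, a size that leads to bone healing. In the Non-union group (4 mice, P13 to P16) it was 1.8 mm and the periosteum next to the gap was stripped, so that gap size and periosteum differed together. All 8 calluses were taken at day 7, and each mouse gave 1 array, so that the p-values below measure the spread between mice. Whether a gap would heal could not be seen at day 7, and the paper takes this from earlier studies of the model.

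Genes of this locus are imprinted, which means that only the copy inherited from one parent is active. The protein-coding genes Dlk1, Rtl1 and Dio3 are expressed from the paternal copy, while the long RNAs Meg3, Rian and Mirg and the miRs are expressed from the maternal copy. The miRs are best known from the embryo, the placenta and the brain, and those that lie opposite Rtl1 match its RNA fully and cut it. A miR binds its targets mainly through its seed, bases 2 to 8 counted from the 5′ end.

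In the RefSeq annotation of GRCm38.p6 the hairpins of the members lay at chr12:109563692-109747960, from Mir770 to Mir3072. The array design names the older build mm9, so these positions belong to RefSeq and not to the deposited files. Mir770 lies in Meg3, a group around Mir127 (miR-431, miR-433, miR-127, miR-434 and miR-136) lies opposite Rtl1, Mir341 and Mir370 lie in Rian, and the long series from Mir379 to Mir410 and Mir3072 runs up to and through Mirg. A mature sequence was found in the RefSeq table for 93 of the 103 members. The sequences below are those of neighbours with alike seeds and of the members whose values are followed in detail, with the seed in capitals.
miR-379-3p: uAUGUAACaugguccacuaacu
miR-411-3p: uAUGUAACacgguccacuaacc
miR-379-5p: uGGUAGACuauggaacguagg
miR-411-5p: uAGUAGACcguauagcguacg
miR-300-3p: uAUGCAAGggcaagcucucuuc
miR-381-3p: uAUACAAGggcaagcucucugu
miR-376a-3p: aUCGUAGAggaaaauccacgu
miR-376b-3p: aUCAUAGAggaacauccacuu
miR-543-3p: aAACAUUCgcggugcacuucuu
miR-495-3p: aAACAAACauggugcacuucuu
miR-382-3p: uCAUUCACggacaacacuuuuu
miR-369-5p: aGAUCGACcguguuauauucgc
miR-127-3p: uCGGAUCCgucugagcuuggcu
miR-410-3p: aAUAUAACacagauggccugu
miR-134-5p: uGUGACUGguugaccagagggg
miR-370-3p: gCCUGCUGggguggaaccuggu
miR-3072-5p: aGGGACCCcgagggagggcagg

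The 3p arms of miR-379 and miR-411 had the same seed, and apart from it they differed at 2 of 22 positions. Seeds that differed at 1 position were found in miR-300-3p and miR-381-3p (G4A, with the base of the miR named earlier first and positions counted from 1 at the 5′ end), in miR-376a-3p and miR-376b-3p (G4A), and in miR-379-5p and miR-411-5p (G2A). MiR-543-3p and miR-495-3p differed at U6A and U7A. MiR-379-5p also shares its seed with miR-1193-5p and miR-376b-5p with miR-376c-5p, and in these pairs the miR named last was detected on no array. MiR-299b-5p is contained in the sequence of miR-299a-5p, so that a signal for one cannot be told apart from the other. MiR-299-3p, miR-376c-3p and miR-487b-3p were detected but are named only.

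Before the groups were compared, the arrays were looked at as a whole. The scanner software called between 324 and 366 murine miRs detected on the Non-union arrays and between 361 and 391 on the Union arrays. Each group filled 1 row of 1 slide, so that row and group cannot be told apart. The miRs of cartilage (miR-140 and miR-455, each with its 5p and 3p arm) were detected on every array. Of 5 miRs that mark neurons, 2 were detected on every array, while miR-124-3p was detected on none. Of 6 skeletal muscle miRs, 4 were also detected on every array. Each array was also set against the mean of the other group and that of the other arrays of its own. P19 lay nearer to the Non-union mean in 80.0% of the tested miRs, P20 in 50.6%, P18 in 28.4% and P17 in 22.9%, and among the Non-union arrays P14 lay nearer to the Union mean in 60.6% and the others in 14.2% to 35.2%. Results that rest on P19 are therefore given with and without it.

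Of the 103 members, 39 were detected on all 8 arrays (37.9%, against 28.7% of all murine miRs) and 59 on none (57.3%, against 60.9%). The remaining 5 were detected on some arrays. The number of members detected was 42, 41, 42 and 42 on the Non-union arrays P13 to P16 and 43, 40, 43 and 39 on the Union arrays P17 to P20. The ranges of the groups overlapped, with the highest and the lowest count both in the Union group.

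The detected members came from all regions of the locus. At the Meg3 end, both arms of miR-337 were detected on every array, 2 members were detected on some and 11 on none (miR-770-5p, both arms of miR-673, miR-493 and miR-540, miR-665-5p, both arms of miR-3070a and miR-3070b-3p). RefSeq places Mir673, Mir493, Mir337, Mir540 and Mir665 within the interval of Rtl1 as well. A list of 12 members around Mir127 held 10 arms on the plus strand, opposite Rtl1, and both arms of miR-3071 on the minus strand. Of the former, 6 were detected throughout (miR-431-5p, miR-127-3p, both arms of miR-434 and of miR-136), and miR-431-3p, miR-433-5p and miR-127-5p never, nor were the arms of miR-3071. In Rian, miR-341-3p and miR-370-3p were detected on every array and their 5p arms on none.

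The series from miR-379 to miR-410 is known in neurons as a cluster transcribed under the control of Mef2. Counted here together with both arms of miR-3072, which lies beyond miR-410, the series held 72 members. It had 29 that were detected on all arrays and 41 that were detected on none. Both arms were undetected for miR-1197, miR-323, miR-758, miR-679, miR-1193, miR-666, miR-667, miR-539, miR-544, miR-668, miR-485, miR-496 and miR-412. For other precursors 1 arm was undetected, namely the 5p arm of miR-380, miR-329, miR-494, miR-543, miR-495, miR-376c, miR-300, miR-381, miR-487b, miR-377 and miR-410 and the 3p arm of miR-134, miR-541, miR-369 and miR-3072. Over the whole locus, 8 precursors had both arms detected throughout, 17 only the 3p arm and 6 only the 5p arm.

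The 5 members detected on some arrays had low signals. The merged signal is the background-corrected brightness of a miR summed up over its spots by the scanner software, in arbitrary units. For miR-409-5p it was 12.3, 13.7, 17.4 and 14.6 on P13 to P16 and 13.7, 12.1 and 20.3 on P17 to P19, and only on P20 was it not detected. For miR-376a-5p it was 2.38, 2.28, 2.90 and 2.55 on P13 to P16, 2.66 on P17 and 3.14 on P19, without detection on P18 and P20. MiR-433-3p, which lies opposite Rtl1, was detected on P13 (4.55), P15 (5.77), P16 (5.14) and P19 (6.21). P19 had the highest signal of each of these 3 miRs. MiR-665-3p was detected on P17 (2.97) and P19 (2.35), and miR-770-3p on P17 alone (3.17). Without P20, miR-409-5p could be tested and differed by 0.31 ± 0.36 (SE) on the log2 scale (limma, adjusted p = 0.522).

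The comparison of the groups asked whether these miRs were at another level in callus of the larger gap with stripped periosteum. In most of them the mean was higher in the Non-union group, but the groups overlapped in every one. For the 310 murine miRs detected on all arrays the merged signals were put on a log2 scale, quantile normalized and compared as Non-union minus Union with limma. The difference was above 0 in 36 of the 39 members (92.3%, against 59.4% of all tested miRs). Without normalization 35 lay above 0 (89.7%, against 40.3%), since miR-136-5p turned to -0.03. The median difference was 0.50 in the members and 0.15 over all tested miRs. It was 0.43 against 0.03 with normalization over the detected miRs only and 0.25 against -0.10 without normalization. In this order of settings the median of the members lay 0.35, 0.41 and 0.36 above that of all tested miRs. With normexp background correction the medians were 0.18 and 0.03, a smaller gap of 0.15. Leaving out single arrays gave gaps from 0.11 without P20 to 0.59 without P19, so the size of the gap depended on the setting. No member had an adjusted p under 0.05 (limma, against 0.0% higher and 0.323% lower among all tested miRs), and the smallest was 0.313.

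With the unadjusted threshold of 0.05 used by the study, limma called 3 members higher in the Non-union group (7.69%, against 9.68% of all tested miRs) and 0 lower (against 4.19%). Both shares lay below those of all tested miRs. The methods' t-test called 0 members in either direction. A fold change of 2 or more was reached by 1 member (2.56%, against 7.1%) in the higher direction and by 0 in the lower (against 1.29%). The groups did not overlap in 0 members, be it with Non-union above Union (against 1.29%) or below it (against 2.58%). In bulk tissue a lower share of cells that make a miR and less of it per cell cannot be told apart.

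**Figure D1:**
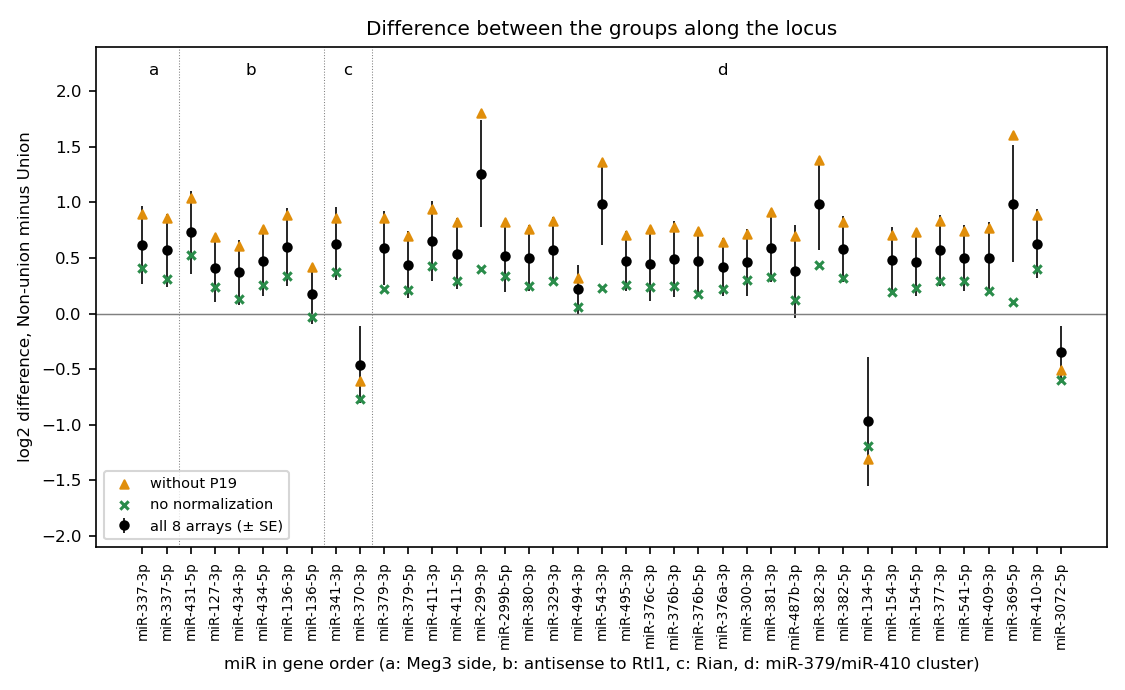
Difference between the groups for the 39 members detected on all arrays, in the order of their genes. The vertical axis is the log2 difference, Non-union minus Union. Black points with bars are values of all 8 arrays ± SE, orange triangles are values without P19 and green crosses values without normalization. The black points lie above 0 for 36 members, and miR-370-3p, miR-134-5p and miR-3072-5p lie below 0 in all settings drawn.

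Positive differences were found in every region of the locus. The 2 arms of miR-337 differed by 0.57 and 0.62. Opposite Rtl1 the 6 members lay between 0.18 for miR-136-5p and 0.73 for miR-431-5p, with a median of 0.44. MiR-127-3p, whose full match to the Rtl1 RNA is the best studied of the locus, differed by 0.41 ± 0.31 (SE) and was not called (limma, p = 0.215, adjusted p = 0.407; exact permutation test, p = 0.229). In Rian the values went apart, with 0.63 for miR-341-3p and -0.46 for miR-370-3p. In the series from miR-379 to miR-410, with miR-3072 counted in, the median was 0.50, and 27 of the 29 members lay above 0. Apart from the miRs with values of their own below, this series comprised both arms of miR-154, miR-382-5p, miR-299b-5p, miR-380-3p, miR-329-3p, miR-494-3p, miR-376c-3p, miR-376b-5p, miR-487b-3p, miR-377-3p, miR-541-5p, miR-409-3p and miR-410-3p, with differences from 0.22 in miR-494-3p to 0.63 in miR-410-3p.

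Both arms were tested for 8 precursors, and their differences lay apart by 0.02 for miR-154 to 0.41 for miR-136 and miR-382. These gaps changed with the scaling: with normalization over the detected miRs only, the 5p and 3p arms had 0.56 and 0.46 for miR-382 but 0.18 and 0.48 for miR-376b, whose arms had 0.47 and 0.49 before. The 2 miRs with the same seed, miR-379-3p and miR-411-3p, differed by 0.59 and 0.65, or by 0.29 and 0.59 with normalization over the detected miRs only. The values were 0.46 and 0.59 for miR-300-3p and miR-381-3p, 0.42 and 0.49 for miR-376a-3p and miR-376b-3p, and 0.44 and 0.54 for miR-379-5p and miR-411-5p. Probes of such close sequences can also catch each other's miR, and how far this happened was not tested. MiR-543-3p and miR-495-3p, with 2 changes in the seed, differed by 0.99 and 0.47, but by 0.27 and 0.45 with normalization over the detected miRs only.

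With quantile normalization over all murine miRs, miR-299-3p had the largest difference among the members. Its merged signal was 7.13, 7.80, 9.69 and 7.26 on P13 to P16 and 7.34, 5.60, 10.6 and 2.97 on P17 to P20. P19 was above all Non-union arrays and P20 was the lowest of all. The normalized log2 signal was 3.11 ± 0.45 (SD, n = 4) in the Non-union and 1.85 ± 1.01 (SD, n = 4) in the Union group. This gave a difference of 1.26 ± 0.48 (SE) or a fold change of 2.4 (limma, p = 0.0265, adjusted p = 0.313), and the exact permutation test over the 8 arrays gave p = 0.114.

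The size of this value came largely with the normalization. P16 and P17 had nearly the same merged signal of miR-299-3p, 7.26 and 7.34, but normalized log2 signals of 3.65 and 1.60. Quantile normalization over all murine miRs also ranks the miRs that were not detected, and P16 had 324 and P17 391 detected miRs. When only the miRs detected on all arrays were normalized, the difference was 0.47, below 0.61 for miR-337-3p and miR-410-3p. Without normalization it was 0.40, below 0.53 for miR-431-5p.

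MiR-543-3p had merged signals of 9.12, 9.39, 11.8 and 9.28 on P13 to P16 and of 9.93, 7.13, 11.6 and 6.11 on P17 to P20. P18 and P20 were below all Non-union arrays, while P17 and P19 lay among them. The difference was 0.99 ± 0.37 (SE; limma, p = 0.0253, adjusted p = 0.313; exact permutation test, p = 0.0857). It was 0.27 with normalization over the detected miRs only and 0.23 without normalization.

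For miR-382-3p the merged signals were 11.6, 11.5, 14.4 and 12.5 on P13 to P16 and 10.6, 7.69, 15 and 5.72 on P17 to P20. Here P19 alone kept the groups from being separate. The difference was 0.99 ± 0.42 (SE; limma, p = 0.0411, adjusted p = 0.327; exact permutation test, p = 0.0857). It was 0.46 with normalization over the detected miRs only and 0.44 without normalization. Under both of these settings limma called 0 members higher at an unadjusted p under 0.05 (against 6.77% and 6.13% of all tested miRs), and likewise 0 in the authors' value table (against 8.71%).

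MiR-369-5p had a difference of the same size, 0.99 ± 0.53 (SE), that was not called (limma, p = 0.0919, adjusted p = 0.378; exact permutation test, p = 0.229). Its merged signals were 7.69, 8.48, 14.7 and 8.87 on P13 to P16 and 8.93, 7.37, 16.2 and 6.0 on P17 to P20. P15 and P19 stood high in their groups, and the other arrays lay between 6.0 and 8.93. The difference was 0.15 with normalization over the detected miRs only and 0.10 without normalization.

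The 3 members with lower means in the Non-union group shared another order of the arrays. MiR-134-5p, which limits the size of dendritic spines in neurons, had merged signals of 70.8, 82.3, 35.5 and 27.1 on P13 to P16 and of 229.4, 309.5, 47.3 and 45.7 on P17 to P20. P17 and P18 were far above all other arrays, while P19 and P20 lay within the Non-union range. Its difference was -0.97 ± 0.58 (SE) and was not called (limma, p = 0.126, adjusted p = 0.378; exact permutation test, p = 0.286).

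MiR-370-3p followed with merged signals of 18.1, 19.1, 13.1 and 7.85 on P13 to P16 and of 34.6, 46.6, 16.1 and 11.6 on P17 to P20. Again P17 and P18 were the highest arrays. The difference was -0.46 ± 0.35 (SE; limma, p = 0.218, adjusted p = 0.407; exact permutation test, p = 0.343). MiR-3072-5p had 93.5, 116.7, 79.2 and 59.4 on P13 to P16 and 166.2, 188.0, 83.1 and 103.2 on P17 to P20, with the same 2 arrays on top and a difference of -0.35 ± 0.24 (SE; limma, p = 0.177, adjusted p = 0.387; exact permutation test, p = 0.20). All 3 stayed below 0 without normalization and without P19. Without P18 they fell in size to -0.49 for miR-134-5p, -0.17 for miR-370-3p and -0.17 for miR-3072-5p.

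These 3 miRs are rich in G and C, with 59.1% in miR-134-5p, 68.2% in miR-370-3p and 77.3% in miR-3072-5p. MiR-341-3p (66.7%) and miR-127-3p (59.1%) were as rich and had values of 0.63 and 0.41. Over the 244 tested miRs with a RefSeq sequence, those with 60% or more of G and C had a median difference of -0.33, and 12 of 50 lay above 0. For miRs with less than 40% the median was 0.33, with 30 of 44 above 0. The values in between showed no steady fall. From 40% to under 50% the median was 0.18, with 57 of 85 above 0. From 50% to under 60%, the range of miR-134-5p, it was 0.32, with 50 of 65 above 0. Across the 36 members with a sequence Spearman's rho between the share of G and C and the difference was -0.24 and across the other tested miRs it was -0.18. Pearson's r was -0.51 across the members and -0.17 across the others, and no difference between them was tested. These points share the same 8 arrays. The part of base composition in the 3 lower values was not tested.

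**Figure D2:**
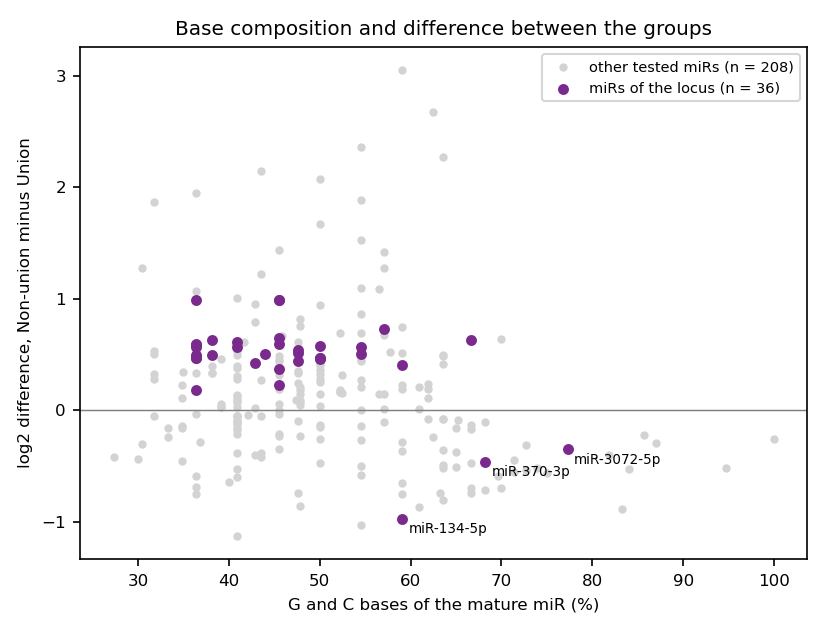
Base composition and difference between the groups. The horizontal axis is the share of G and C in the mature miR in percent, the vertical axis the log2 difference, Non-union minus Union, and each point is 1 tested miR. Most of the 36 members (purple) lie in a band around 0.50, and the 3 named members below 0 have 59.1% to 77.3% of G and C.

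Within the groups most members, though not all, moved together from array to array. For each member the deviation from its own mean over the 8 arrays was taken on the normalized log2 scale. The median deviation over the 39 members was -0.04, 0.02, 0.49 and 0.62 on P13 to P16 and -0.26, -0.53, 0.52 and -0.80 on P17 to P20. For the 271 other tested miRs the medians of all arrays lay between -0.25 and 0.05. On this scale P15, P16 and P19 thus had high and P17, P18 and P20 low levels of most members, with P13 and P14 in between. MiR-494-3p, which has a difference above 0, instead fell from 8.76 on P13 to 8.12 on P16, and it was 8.12 on P20 as well. Without normalization the medians were -0.03, 0.15, 0.34 and 0.08 on P13 to P16 and 0.15, -0.30, 0.47 and -0.85 on P17 to P20, so that P15 and P19 stayed high and P18 and P20 low, while P16 and P17 did not stand apart.

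**Figure D3:**
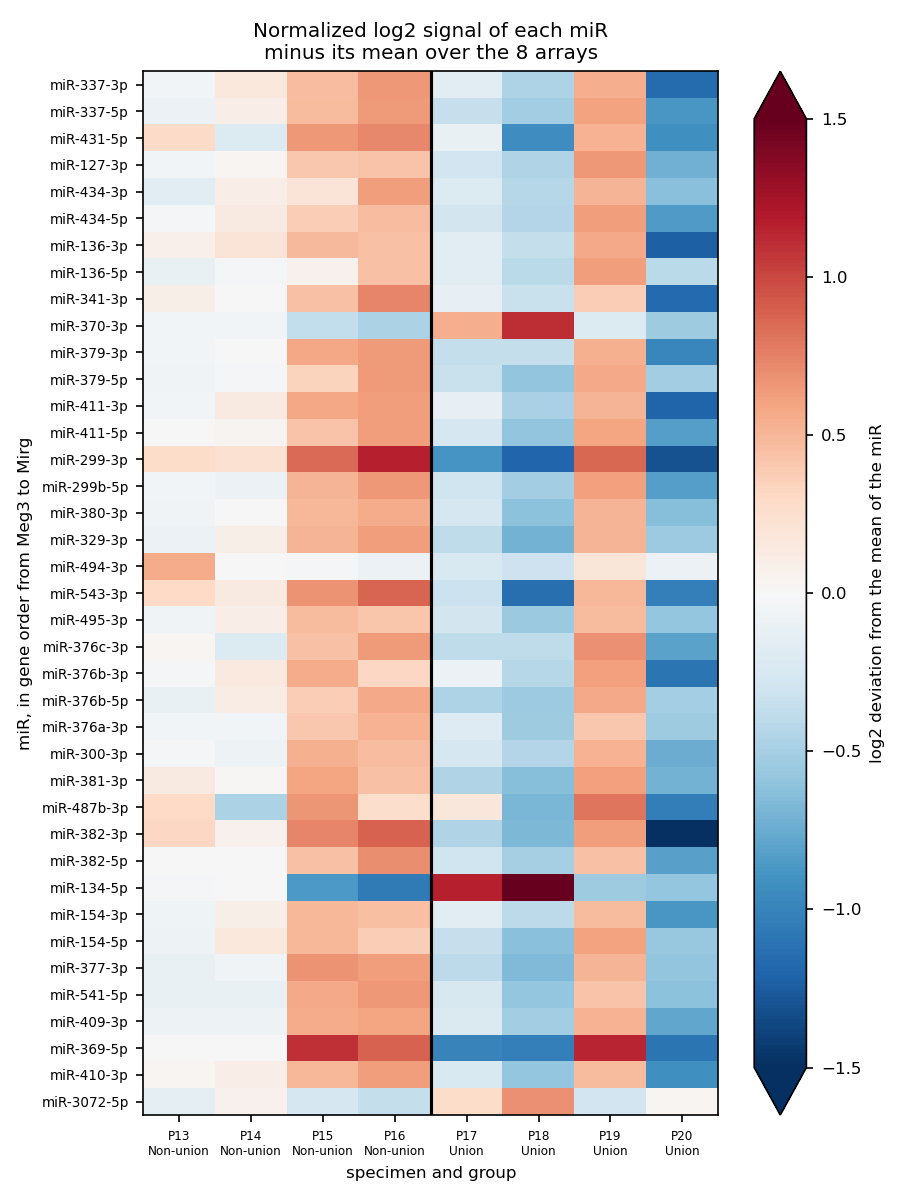
Level of each of the 39 members on each array. Rows are miRs in gene order, columns are the arrays with their group, and the colour is the normalized log2 signal minus the mean of the miR over the 8 arrays. P15, P16 and P19 are mostly red (median deviations of 0.49, 0.62 and 0.52) and P18 and P20 mostly blue (-0.53 and -0.80). MiR-370-3p, miR-134-5p and miR-3072-5p show another order, and so does miR-494-3p, which is highest on P13.

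P19 was the highest Union array in 36 of the 39 members (92.3%, against 36.1% of all tested miRs). It lay nearer to the Non-union mean than to that of the other Union arrays in 39 of 39 (against 80.0%). For P17, P18 and P20 this held in 1, 0 and 2 members (against 22.9%, 28.4% and 50.6%). Among the Non-union arrays P13 lay nearer to the Union mean in 27 members (69.2%, against 35.2%) and P14 in 22 (56.4%, against 60.6%). P15 and P16 did so in 1 each (against 14.2% and 19.4%). P20 was the lowest Union array in 28 members (71.8%, against 20.6%) and P13 the lowest Non-union array in 25 (64.1%, against 17.4%). In the merged signals before normalization P19 was again the highest Union array in 36 members (against 26.1%), and P20 was the lowest in 37 (against 28.1%). There P19 lay nearer to the Non-union mean in 39 members (against 80.6%), but P17 also did so in 35 (89.7%, against 36.1%). The same held for P18 in 2 (against 31.3%) and for P20 in 15 (against 48.1%). P13 lay nearer to the Union mean in 30 (76.9%, against 46.8%).

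P19 and P20 were also the extremes in some, but not all, members whose signals were far above 2.16 units, the lowest merged signal of any detected miR. The 3 following were picked after their values were seen, from different regions. MiR-127-3p had merged signals of 250.7, 298.1, 307.4 and 243.2 on P13 to P16 and of 269.8, 202.6, 369.5 and 142.4 on P17 to P20. MiR-379-5p had 179.1, 207.3, 213.5 and 222.4 and then 204.6, 153.7, 270.6 and 115.5. MiR-410-3p had 64.1, 74.1, 82.5 and 78.1 and then 72.2, 51.4, 85.0 and 32.2. In each of them the Union group held the highest and the lowest array, P19 and P20, and its SD was larger than that of the Non-union group: 97.3 against 32.6 units in miR-127-3p, 67.1 against 18.7 in miR-379-5p and 23.2 against 7.86 in miR-410-3p. The member with the highest signal, miR-494-3p, went the other way. It had 464.8, 329.9, 260.9 and 203.9 on P13 to P16 and 302.1, 264.9, 313.3 and 275.8 on P17 to P20. Its SD was 22.5 units in the Union and 112 in the Non-union group.

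**Figure D4:**
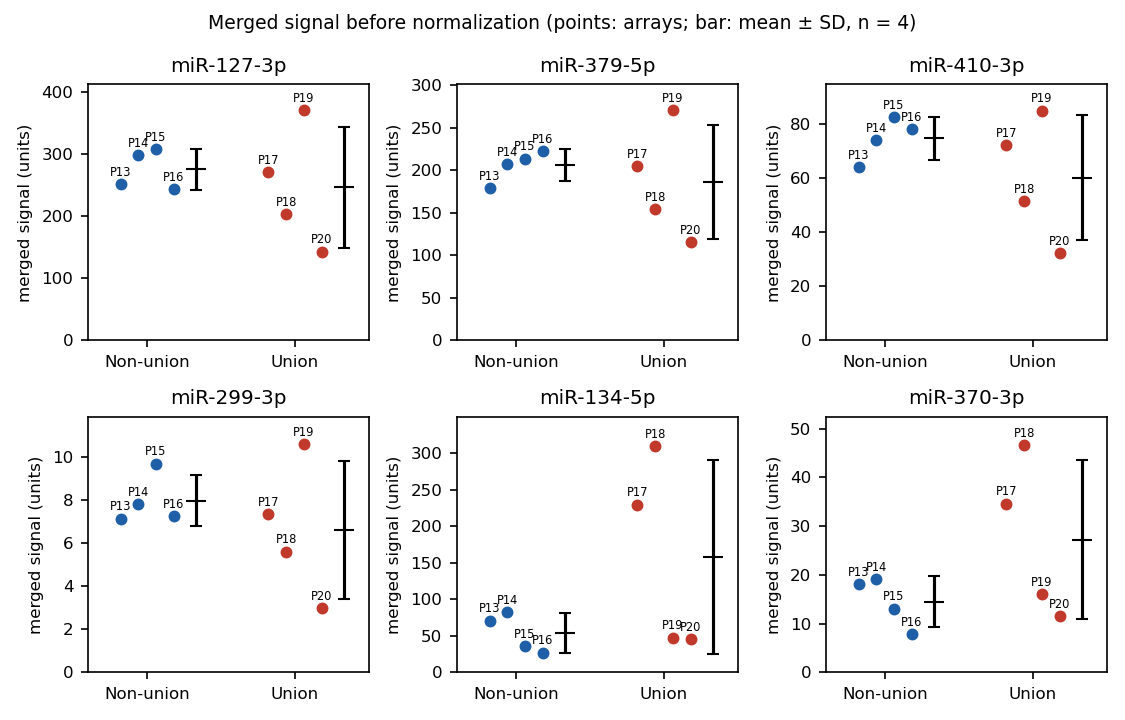
Merged signals of 6 members before normalization, in arbitrary units on axes that start at 0. Points are the arrays P13 to P16 (Non-union) and P17 to P20 (Union), and bars are the mean ± SD (n = 4). In miR-127-3p, miR-379-5p, miR-410-3p and miR-299-3p the Union arrays spread from P20 to P19 around the Non-union arrays, whereas in miR-134-5p and miR-370-3p P17 and P18 lie above all others.

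Without P19 the comparison changed. P19 was singled out after its values were known. Leaving it out takes away the Union array that was most like the Non-union group on the normalized scale. These values therefore describe the other 7 arrays and are no second test. The median difference of the members was then 0.77, against 0.18 over all tested miRs. Limma called 33 members higher (84.6%, against 27.4% of all tested miRs) and 1 lower (2.56%, against 9.68%), which was miR-3072-5p (limma, adjusted p = 0.131). Of the members above 0, only miR-136-5p, miR-487b-3p and miR-494-3p were not called.

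With adjusted p under 0.05, 3 members remained higher without P19 (7.69%, against 2.9% of all tested miRs). These were miR-299-3p with 1.81 ± 0.27 (SE; limma, adjusted p = 0.0269), miR-369-5p with 1.61 (adjusted p = 0.0451) and miR-543-3p with 1.36 (adjusted p = 0.0473). On the 7 arrays without P19 their merged signals lay between 2.97 and 14.7 units. With normalization over the detected miRs only they had 0.69, 0.42 and 0.37, without a limma p under 0.05.

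Other settings gave other counts without P19. With normalization over the detected miRs only, 26 members were higher (66.7%, against 20.6%) and 3 lower (7.69%, against 15.5%). Without any normalization 2 were higher (5.13%, against 7.74%) and 2 lower (5.13%, against 16.1%), although 36 of the 39 differences were still above 0 (against 39.0%). Likewise the groups without P19 were separate, with Non-union above Union, in 33 members after normalization (84.6%, against 24.2%) but in 1 before it (2.56%, against 8.39%).

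P20 weighed in the other direction. Without P20 the median difference was 0.34, against 0.23 over all tested miRs, and limma called 0 members higher (against 10.6% of all tested miRs) and 1 lower (2.56%, against 4.84%), which was miR-134-5p with -1.33 (limma, adjusted p = 0.287). Without P19 and P20 it called 27 higher (69.2%, against 38.4%) and 3 lower (7.69%, against 19.4%), which left 2 Union arrays.

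Markers of cells in the callus also differed between the arrays. The mean normalized log2 signal of the 4 cartilage miRs was 7.14, 6.47, 7.74 and 8.69 on P13 to P16 and 5.67, 5.67, 6.93 and 6.20 on P17 to P20. P16 was thus the highest Non-union array and P19 the highest Union array. P20 came next among the Union arrays, while it was the lowest Union array in 28 members. Among the members P16 was the highest Non-union array in 25 of 39 on the same scale (64.1%, against 40.3%), but in the merged signals it was so in 1 (2.56%, against 5.48%). The part of cartilage in the levels of the members was not tested. For the myeloid miRs (both arms of miR-142 and miR-223-3p, with miR-223-5p never detected) the mean was 12 on P20 and between 9.53 and 10.16 on all other arrays. P20 was also the array on which most members were lowest, and whether these are linked was not tested. The summed merged signal of the 6 muscle miRs ranged from 14855 units on P16 to 62359 on P14 in the Non-union group and from 36945 on P20 to 95817 on P17 in the Union group, and its part was not tested either. Sums of the red blood cell miRs ranged from 2960 to 9469 units and from 3050 to 16676, and those of the neuron miRs from 173 to 398 and from 246 to 321 in the Non-union and the Union group. The sums of both arms of miR-126, a marker of endothelium, ranged from 1935 to 2703 and from 2743 to 3472 units, without overlap of the groups. On the normalized log2 scale their means overlapped, with 8.56 on P13 of the Non-union and 8.49 on P18 of the Union group, and their part was not tested.

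Other miRs that are assigned to the locus but were not among the 51 numbers were looked up as well. MiR-1906 was detected on all arrays and differed by -0.11 ± 0.17 (SE; limma, adjusted p = 0.67). MiR-1188-3p was detected on 2 arrays, and miR-1188-5p, miR-432, miR-453, both arms of miR-654 and miR-882 on none.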

How the data were processed

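Total RNA of the callus of 8 mice was labelled with Cy3 and hybridized to the 8 arrays of 1 slide, 40 spots per miR. Scanner output of Agilent Feature Extraction 10.10.1.1 was deposited per array: the signal intensity of each spot, the background-corrected signal merged over the spots of a miR (0.1 where not detected) and a detection call per miR. A table of log2 values that the authors had merged and quantile normalized was deposited as well.

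Here log2 was taken of the merged signals, followed by quantile normalization over the 1079 murine miRs. The 310 detected on all arrays were compared as Non-union minus Union with limma 3.58.1 (lmFit, eBayes; two-sided, Benjamini-Hochberg over the 310) in R 4.3.3, on groups taken from the labels. For single members all 70 arrangements of the arrays were permuted exactly (smallest two-sided p 0.0286). Python 3.11.15, numpy 2.4.6, pandas 2.3.3 and matplotlib 3.10.9 were used for the rest. The number of arrays limits the precision.

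Alternatives were other normalizations (75th percentile over the detected or over all murine miRs, quantile over the detected miRs only, none) and the mean processed signal of the spots (4429 values at or below 0 set to 0.1). Further ones were normexp with an offset of 50 on the median spot signal, the authors' value table, other detection filters, a floor of 1 unit, Student's t-test and leaving out arrays. Leaving out pairs of arrays, and P19 together with another normalization, was chosen after seeing the data. No slide or scan block could be fitted, with 1 slide and 1 scan.

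Members with a limma p under 0.05 or a fold change of 2, and the 3 highest and 3 lowest differences, were to be given in full, the others by difference, detection or name. The members, the regions of the locus and the marker lists (muscle, red blood cells, myeloid cells, cartilage, endothelium, neurons) were chosen with earlier results of these data known. On simulated data made from the 310 miRs with 30 changed, in 20 runs, the fit recovered 48.0%, 88.5% and 96.0% of changes of 1, 2 and 3 on the log2 scale at an adjusted p under 0.05, with 5.3% false calls. The noise was drawn separately for each miR. Sequences were those of the RefSeq table of GRCm38.p6.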

Additional observations from a re-analysis of the deposited data

Results flagged for a closer look

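In 78 groups of 4 arrays (39 members, both groups), the highest or lowest array was set against the others of its group, and 3 groups had an array farther off than Dixon's 95% critical value. Chance flags about 1 in 20 groups, which is 3.9 of 78. On the normalized log2 scale miR-369-5p was 4.04 on P19 and between 1.81 and 1.90 on the other Union arrays. MiR-376b-5p was 4.37 on P19 and between 3.25 and 3.34 on the other Union arrays. MiR-494-3p was 8.76 on P13 and between 8.12 and 8.21 on the other Non-union arrays.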

How the results depend on the processing

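The 36 members above 0 and the 3 below 0 kept their direction under all alternatives run, except miR-136-5p, which turned to -0.03 without normalization. There were 740 values of single members under the other alternatives than those chosen after seeing the data. Of these, 39 lost a p under 0.05, and all 39 belonged to the 3 called members, since no other member had one to lose. A p under 0.05 was gained by 34 values, of which 31 came from leaving out P19. The number of members called higher (3) was 0 with the 75th percentile over the detected miRs and with quantile normalization over these only. It was also 0 without normalization, with normexp, with the authors' value table and with Student's t-test. With the 75th percentile over all murine miRs and with the mean processed signal it was 1. Leaving out 1 array gave 0 to 33, with 0 without P15, P16, P18 or P20, 1 without P17, 2 without P13, 4 without P14 and 33 without P19. The number called lower (0) was then 0 to 1. The number with a fold change of 2 or more was 0 to 5 in the higher direction (5 without P19, 4 without P13 or P14, 3 without P17, 0 without P16) and 0 to 1 in the lower (1 without P13, P14, P19 or P20), and the median difference was 0.34 to 0.77. The higher number (1) was 0 with both 75th percentiles, with quantile normalization over the detected miRs, without normalization and with normexp. It was also 0 with signals under 1 set to 1 and with the authors' value table, and 3 with miRs detected in at least 1 group. That filter added miR-409-5p and miR-376a-5p, whose Union arrays without detection entered at 0.1 units before normalization. The lower number (0) was 1 without normalization.

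Of the settings chosen after seeing the data, leaving out P14 and P19 gave 33 members higher and 1 lower, 6 and 1 with a fold change of 2 or more and a median of 0.88. Leaving out P19 and P20 gave 27 and 3, and 4 and 2 with such a fold change. Without P19 and with normalization over the detected miRs only, 26 were higher and 3 lower, with 0 and 1 past the fold change. Without P19 and without normalization 2 were higher and 2 lower, with 0 and 1. The cause of these shifts was not tested. With 4 arrays per group, changes of 1 on the log2 scale were recovered in 48.0% of simulated cases. The simulated noise was separate for each miR, whereas most members moved together, so this rate need not hold for them. No paired analysis was possible because the groups share no specimen numbers.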
